A study of Mus musculus with 6 samples.

Results

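The matrix metalloproteinases (MMPs), the ADAMTS proteases and the tissue inhibitors of metalloproteinases (TIMPs) were examined in RNA-seq counts of gonadal white adipose tissue (gWAT), a visceral depot next to the reproductive tract. Members were all genes of the deposited table whose mouse symbol starts with Mmp and a number, or consists of Timp or Adamts and a number. They were 43 of the 19790 genes listed, of which 20 were MMP, 4 TIMP and 19 ADAMTS genes. *Mmp1a*, *Mmp1b* and *Mmp20* match the rule by symbol but have no row in the table, and were not analysed here. The mice were wild-type C57BL/6 animals fed a normal chow diet (NCD, n = 3) or a high-fat diet (HFD, n = 3) for 8 weeks. The labels give an age of 6 weeks at the start of feeding and the study's methods give 8 weeks, and the methods describe male mice. Both groups shared strain, genotype, tissue and library kit, and differed by diet and, as given below, in their seminal vesicle RNA. Each library is whole tissue of 1 mouse, with adipocytes, stromal, vascular and immune cells together, so that fewer cells of a type and less RNA per cell cannot be told apart.

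MMPs are zinc-dependent endopeptidases that cut collagens, elastin, proteoglycans and other proteins of the extracellular matrix, and most are secreted as inactive precursors that need cleavage to become active. ADAMTS proteases are related secreted enzymes with thrombospondin repeats, which process procollagens, cut proteoglycans such as versican and aggrecan, or act on single substrates such as von Willebrand factor. TIMPs bind to the active site of these enzymes and block it. In fat, these genes are known for the remodelling of the matrix around adipocytes as the pad expands.

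Libraries held between 49575113 and 66360046 counts. Transcripts of the seminal vesicle took 58.6% of the counts in NCD replicate 1, counted over 11 genes, against 11.2% and 2.30% in NCD replicates 2 and 3, with 95% Wilson intervals within 0.0119 percentage points for counting error only. The 3 HFD libraries held between 2 and 8 counts of these genes. A list of 6 adipocyte markers, all of them detected in every mouse, was lowest in NCD replicate 1, with a sum of 2947 TMM-scaled CPM against 10100.2 to 16641 elsewhere. TMM-scaled CPM are counts scaled to a common library size (CPM) after edgeR's correction for differences in composition between libraries. Where 3 values are given for a diet, they are in the order of replicates 1, 2 and 3, and SE is the standard error of the fold change beside it. Because of NCD replicate 1, fold changes or adjusted p-values of most members described are given with all 6 mice and again without that mouse. NCD replicates 2 and 3 also held these transcripts, and all 11 genes were still called lower on HFD without NCD replicate 1. Diet and the presence of seminal vesicle RNA thus went together in both fits, and their parts cannot be told apart.

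A cluster of 7 members on chromosome 9 is shown first, because several of the largest differences between the diets were found in it. In the order of the chromosome the genes are *Mmp13*, *Mmp12*, *Mmp3*, *Mmp10*, *Mmp8*, *Mmp27* and *Mmp7*, over 427.1 kb at chr9:7272514-7699585 (GRCm38). RefSeq promoter windows of 300 bases, from 250 before to 50 after an annotated start, were found for 29 of the 43 members. The motif TGANTCA, with any base at N, includes the core site of the AP-1 transcription factors and reads the same on both strands. TGANTCA was found in a window of 5 of these 7 genes and in none of the windows of the other 22 members. It was found in 7.81% of all 32851 windows. The match is to letters only and says nothing about binding in these mice. The 130 bases before the annotated start are given below for the genes with a match, on the plus strand of GRCm38.p6 as RefSeq annotates it, with the matching letters in capitals. For *Mmp12* and *Mmp7*, which have more than 1 annotated start, the start shown is the one whose window holds the match.
Mmp13 at chr9:7272384-7272513: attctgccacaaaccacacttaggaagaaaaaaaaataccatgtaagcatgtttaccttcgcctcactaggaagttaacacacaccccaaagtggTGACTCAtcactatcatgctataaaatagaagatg
Mmp12 at chr9:7347244-7347373: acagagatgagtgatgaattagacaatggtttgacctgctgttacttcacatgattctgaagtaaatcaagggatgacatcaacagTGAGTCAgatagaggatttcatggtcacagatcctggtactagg
Mmp3 at chr9:7445692-7445821: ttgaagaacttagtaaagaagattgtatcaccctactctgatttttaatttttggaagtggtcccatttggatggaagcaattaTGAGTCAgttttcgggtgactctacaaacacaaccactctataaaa
Mmp10 at chr9:7502212-7502341: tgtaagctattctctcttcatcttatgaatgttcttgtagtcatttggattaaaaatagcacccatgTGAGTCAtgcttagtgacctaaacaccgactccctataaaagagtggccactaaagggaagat
Mmp7 at chr9:7691960-7692089: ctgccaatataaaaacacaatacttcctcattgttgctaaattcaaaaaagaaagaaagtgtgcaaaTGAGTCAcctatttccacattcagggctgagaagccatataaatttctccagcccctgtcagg
The first base of the motif stood 35 bases before the start in *Mmp13*, 44 in *Mmp12*, 46 in *Mmp3* and 63 in both *Mmp10* and *Mmp7*.

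Among the 39 members with enough counts to be tested, few reached an adjusted p under 0.05 with all 6 mice. *Adamts7*, *Adamts14*, *Mmp10*, *Mmp12*, *Timp1*, *Mmp7* and *Mmp8* stood just short of it (edgeR adjusted p from 0.0502 to 0.0604). With all 6 mice, *Mmp3*, *Mmp13*, *Mmp14* and *Adamts4* were called higher on HFD and *Mmp15* was called lower. With NCD replicate 1 omitted, *Timp1*, *Mmp10*, *Adamts7* and *Adamts14* were called higher as well and *Mmp7* was called lower as well. *Mmp10* had 0 counts on NCD and *Mmp7* had 0 on HFD. Each thus passed the filter on low counts only through the other diet, and its call is a description only. The counts were 4 members higher and 1 lower with 6 mice, at a Benjamini-Hochberg adjusted p under 0.05 from edgeR's quasi-likelihood test over 15241 genes. Of all genes tested, 5.58% were called higher and 1.9% lower, against 10.3% and 2.56% of the members. Omitting NCD replicate 1, the counts were 8 higher and 2 lower, where 10.7% and 10.1% of all genes tested were called in these directions. With each of the other 5 mice omitted in turn, no member passed in edgeR (0), where only between 2 and 7 of all genes tested passed. In these fits between 10 and 14 members were higher and 2 or 3 lower at an unadjusted p under 0.05, against 12.2% to 14.1% and 6.83% to 13.5% of all genes tested. With 6 mice these unadjusted numbers were 13 and 2, where 16% and 13.7% of all genes passed. DESeq2 called 10 members higher and 2 lower after adjustment, where 14.1% and 11.5% of all genes were called. It gave *Mmp12* no p-value with 6 mice.

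The median log2 fold change of the 39 members was 0.63, against -0.08 over all genes tested, and it was 0.52 against 0.02 without NCD replicate 1. In 15 members the 3 HFD values were all above the 3 NCD values, and in 2 they were all below. Among all genes tested, 20.5% lay wholly above and 18.7% wholly below. The remaining 22 members overlapped between the diets. Omitting NCD replicate 1, 16 members lay wholly above and 3 wholly below, against 27.9% and 29.1% of all genes tested. *Adamts13*, *Mmp16*, *Mmp21* and *Mmp24* had too few counts to be tested, with at most 52 counts each over the 6 mice. That number was for *Mmp16*, with 40 of them in NCD replicate 1. Exact permutation tests of single genes cannot give a two-sided p below 0.1 with 3 mice against 3, and are not given.

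**Figure D1:**
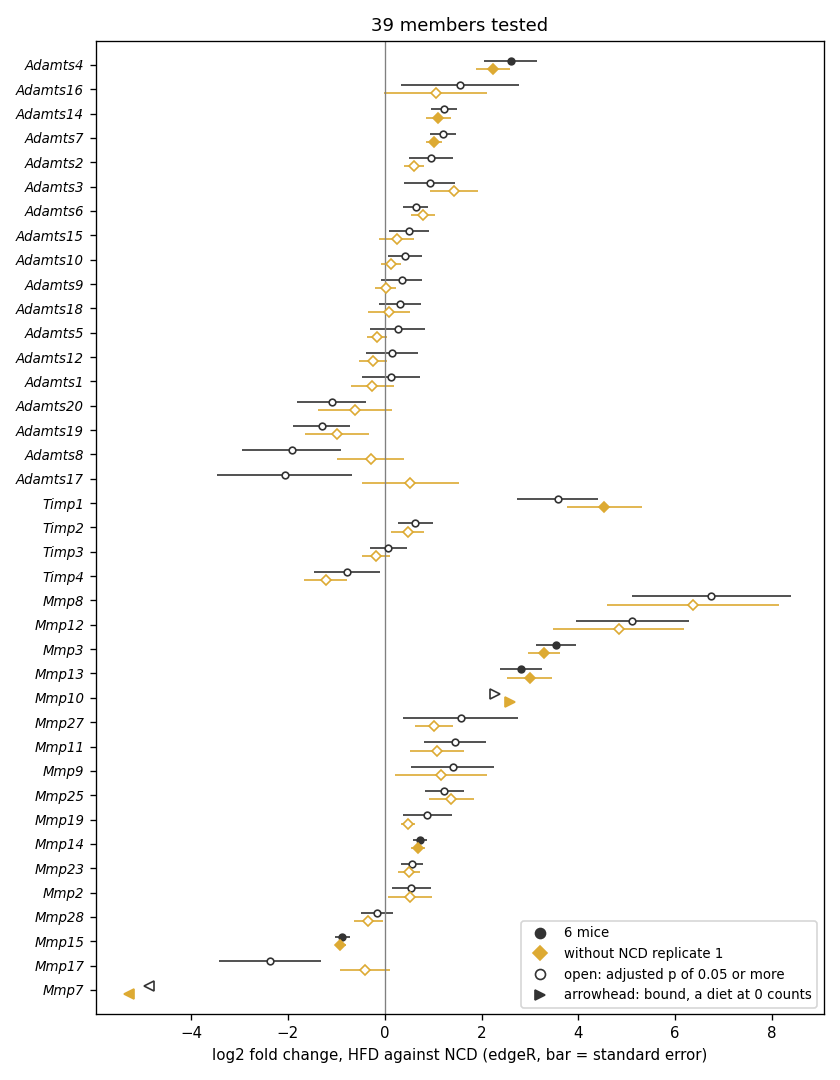
Log2 fold changes (HFD against NCD, x axis) of the 39 tested members by family, with all 6 mice (circles) and without NCD replicate 1 (diamonds); bars are standard errors from edgeR, filled symbols had an adjusted p under 0.05 and open symbols did not, and arrowheads are bounds for *Mmp10* and *Mmp7*, which had 0 counts on a diet. *Mmp17*, *Adamts8* and *Adamts17* are the genes that moved most toward or across 0 when NCD replicate 1 was left out.

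The stromelysins are secreted proteases with many matrix substrates, and *Mmp3* (stromelysin-1, NCBI gene 17392) had the lowest adjusted p of all members tested. Its values were 1.13, 2.56 and 2.18 TMM-scaled CPM on NCD and 15.6, 24.5 and 28.6 on HFD. The lowest HFD value was far above the highest NCD value. The mean rose from 1.95 ± 0.741 (SD, n = 3 mice) to 22.9 ± 6.63 (SD, n = 3 mice), a log2 fold change of 3.54 (SE 0.410, edgeR adjusted p = 0.0212). Without NCD replicate 1 it was 3.29 (edgeR adjusted p = 0.00659), and without any other mouse it stayed between 3.36 and 3.78 with adjusted p-values from 0.0548 to 0.0971 in edgeR.

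*Mmp10* (stromelysin-2) had no count in any NCD-fed mouse and 31, 15 and 15 counts on HFD. These are 0.537, 0.180 and 0.239 TMM-scaled CPM, so that the gene was detected only on HFD and at a low level there. Against a floor of 3 counts per library, which is between 0.0502 and 0.0913 TMM-scaled CPM on NCD, it was at least 4.85-fold higher on HFD. The adjusted p was 0.0521 with 6 mice and 0.0337 without NCD replicate 1 in edgeR. *Mmp11* (stromelysin-3) overlapped between the diets, at 3.32, 8.49 and 12.7 TMM-scaled CPM on NCD and 39.1, 16.6 and 11.3 on HFD (log2 fold change 1.45, SE 0.640, edgeR adjusted p = 0.192, and 1.09 without NCD replicate 1).

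*Mmp7* (matrilysin), a small protease best known from epithelia, went the other way. It had 15, 184 and 24 counts on NCD and 0 counts in all 3 HFD-fed mice, and its TMM-scaled CPM on NCD were 0.457, 3.08 and 0.446. Most of its counts thus came from NCD replicate 2. Against the floor of 3 counts per library it was at least 29.3-fold lower on HFD, and at least 38.9-fold lower without NCD replicate 1, with edgeR adjusted p = 0.0595 and 0.0346. The epithelial list of 5 markers was highest in NCD replicate 1, at 1078 TMM-scaled CPM against 108 and 25.6 in NCD replicates 2 and 3 and between 15.7 and 78.4 on HFD. Of the list, *Krt8*, *Krt18* and *Cdh1* overlapped between the diets, and *Epcam* and *Cldn4* were lower in every HFD-fed mouse. *Epcam* was at 115, 11.3 and 2.73 on NCD and between 0.239 and 0.407 on HFD. *Cldn4* was at 92.2, 8.11 and 1.10 on NCD and at most 0.0693 on HFD. The part of epithelial tissue in the *Mmp7* counts was not tested.

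Collagenases cut the triple helix of fibrillar collagens. *Mmp13* (collagenase-3, NCBI gene 17386) had 0.730, 0.736 and 0.316 TMM-scaled CPM on NCD and 5.06, 3.66 and 3.86 on HFD. The spread within each diet was small beside the gap between them. The mean rose from 0.594 ± 0.241 (SD, n = 3 mice) to 4.19 ± 0.760 (SD, n = 3 mice), a log2 fold change of 2.82 (SE 0.430, edgeR adjusted p = 0.0240) that was 3.0 without NCD replicate 1 (edgeR adjusted p = 0.0131).

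*Mmp8* (neutrophil collagenase), stored in the granules of neutrophils, had 0, 0 and 6 counts on NCD and 24, 384 and 535 on HFD. On the TMM-scaled CPM scale HFD replicates 1, 2 and 3 were at 0.416, 4.60 and 8.53, above the single detected NCD value of 0.112. HFD replicate 1 was far below the other HFD-fed mice, and the adjusted p was 0.0604 with 6 mice and 0.0563 without NCD replicate 1 in edgeR. The 7 neutrophil markers summed to between 4.41 and 9.80 TMM-scaled CPM on NCD and to 20.4, 153 and 413 on HFD, where the 3 mice had the same order as in *Mmp8*. Of the list, *S100a8*, *S100a9*, *Csf3r* and *Cxcr2* were higher in HFD replicates 2 and 3 than in every NCD-fed mouse, and *Cxcr2* was at 0.104, 10.5 and 26.6 TMM-scaled CPM on HFD against at most 0.201 on NCD. The other markers, *Ly6g*, *Mpo* and *Elane*, stayed at or below 0.651 TMM-scaled CPM in every mouse. The part of neutrophils in the difference was not tested.

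*Mmp12* (macrophage elastase, NCBI gene 17381), which macrophages secrete and which cuts elastin, varied widely within HFD. Its values were 4.90, 13.1 and 8.67 TMM-scaled CPM on NCD and 771, 77.8 and 75.6 on HFD. Every HFD-fed mouse was above every NCD-fed mouse, and HFD replicate 1 stood far above the other HFD-fed mice. The log2 fold change was 5.11 (standard error 1.17), and with this spread the adjusted p was 0.0528 with 6 mice and 0.0571 without NCD replicate 1 in edgeR. Without HFD replicate 1 the log2 fold change was 3.11 (edgeR adjusted p = 0.0561), and without both NCD replicate 1 and HFD replicate 1 it was 2.82 (edgeR adjusted p = 0.00884).

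The 7 macrophage markers were higher in every HFD-fed mouse than in every NCD-fed mouse. They summed to 356, 858 and 798 TMM-scaled CPM on NCD and to 3375, 2163 and 2710.2 on HFD. HFD replicate 1 was the highest in both the macrophage sum and *Mmp12*, but the difference to the other HFD-fed mice was far smaller in the sum. That order did not hold across the list. *Adgre1*, *Cd68*, *Csf1r* and *Lyz2* were highest in HFD replicate 1. *Itgam* (253, 336 and 449 on HFD), *Mrc1* (299, 303 and 487) and *Cd14* (39.9, 74.6 and 124) were lowest there among the HFD-fed mice. The part of macrophage number in *Mmp12* and the other members was not tested.

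*Mmp27*, also in the cluster, had 0, 1.52 and 1.40 TMM-scaled CPM on NCD and 1.84, 3.25 and 3.67 on HFD. The diets did not overlap, and the test was not passed with 6 mice (log2 fold change 1.57, SE 1.18, edgeR adjusted p = 0.408) or without NCD replicate 1 (1.02, edgeR adjusted p = 0.121). Of the 7 genes of the cluster, 6 thus lay wholly above in HFD-fed mice and *Mmp7* lay wholly below. The cluster was singled out after these values were seen, so its count is a description only.

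**Figure D2:**
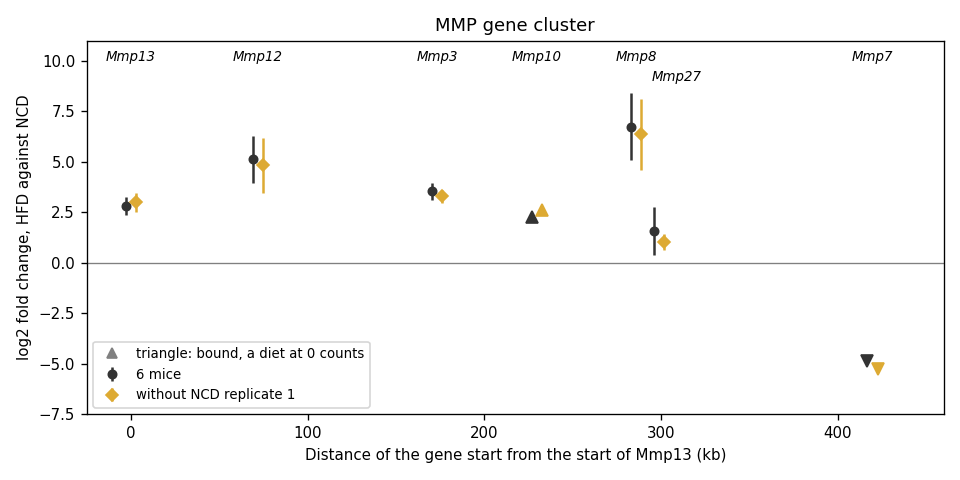
Log2 fold change (HFD against NCD, y axis) of the 7 MMP genes of chromosome 9 by the distance of each start from that of *Mmp13* (x axis, kb), with 6 mice (dark) and without NCD replicate 1 (yellow); bars are standard errors and triangles are bounds against a floor of 3 counts per library. Values are above 0 from *Mmp13* to *Mmp27* and below 0 in *Mmp7* at the other end.

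The gelatinases cut denatured collagen and the type IV collagen of basement membranes, and neither passed the test. *Mmp2* (gelatinase A), made mainly by stromal cells, was at 51.1, 69.5 and 43.1 TMM-scaled CPM on NCD and at 115, 84.9 and 39.9 on HFD. The lowest of all mice was HFD replicate 3, and the log2 fold change of 0.55 (SE 0.404, edgeR adjusted p = 0.395), or 0.52 without NCD replicate 1, was within the spread between mice. *Mmp9* (gelatinase B), which neutrophils and macrophages release, was at 1.70, 2.46 and 4.37 on NCD and at 1.16, 7.43 and 14.0 on HFD, with the lowest value of all in HFD replicate 1 (log2 fold change 1.40, SE 0.856, edgeR adjusted p = 0.316, and 1.16 without NCD replicate 1). HFD replicates 1, 2 and 3 thus had the same order in *Mmp9* as in *Mmp8* and the neutrophil sum.

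The membrane-type MMPs are anchored at the cell surface. *Mmp14* (MT1-MMP, NCBI gene 17387), which activates the precursor of MMP2 and cuts collagen around cells, had 63.6, 75.8 and 66.3 TMM-scaled CPM on NCD and 128, 109 and 104 on HFD. Neither diet varied much, and the groups did not overlap. The mean rose from 68.6 ± 6.4 (SD, n = 3 mice) to 114 ± 12.5 (SD, n = 3 mice), a log2 fold change of 0.73 (SE 0.154, edgeR adjusted p = 0.0459) and of 0.69 without NCD replicate 1 (edgeR adjusted p = 0.0250).

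*Mmp15* (MT2-MMP, NCBI gene 17388) was the only member called lower in the edgeR fit of all 6 mice with TMM scaling. *Mmp7* also lay wholly below there but was short of the threshold. It was at 21.1, 24.5 and 23.0 TMM-scaled CPM on NCD and at 13.1, 12.6 and 11.8 on HFD, with no overlap. The mean fell from 22.9 ± 1.72 (SD, n = 3 mice) to 12.5 ± 0.642 (SD, n = 3 mice), a log2 fold change of -0.87 (SE 0.148, edgeR adjusted p = 0.0289) and of -0.91 without NCD replicate 1 (edgeR adjusted p = 0.00944). Scaled by library totals alone, the fold change was -0.39 and the test was not passed, and the same scaling moved the median of all genes to 0.44. *Mmp14* and *Adamts4* did not pass under that scaling either.

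*Mmp17* (MT4-MMP) was highest in NCD replicate 1, with 23.2 TMM-scaled CPM against 1.27 to 3.53 in the rest. Its log2 fold change was -2.37 with 6 mice and -0.40 without that mouse (edgeR adjusted p = 0.193 and 0.609). The smooth muscle list of 6 markers summed to 6539.7, 768 and 229 TMM-scaled CPM on NCD and to between 216 and 303 on HFD, the same order among the NCD-fed mice as *Mmp17*. In the same library lay the highest values of *Adamts17*, at 4.69 against 0.0956 to 0.884 in the other mice, and of *Adamts8*, at 5.42 against 0.243 to 1.10. Without that mouse their log2 fold changes moved from -2.07 to 0.53 and from -1.92 to -0.29. The part of seminal vesicle tissue in these values was not tested.

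*Mmp25* (MT6-MMP), a membrane-type MMP of leukocytes, was at 0.852, 0.869 and 0.465 TMM-scaled CPM on NCD and at 1.33, 1.61 and 2.2 on HFD, without overlap (log2 fold change 1.23, SE 0.406, edgeR adjusted p = 0.110, and 1.37 with adjusted p = 0.0885 without NCD replicate 1). Of the other MMPs, *Mmp19* was at 24.6, 100.4 and 95.3 on NCD and at 144, 117 and 145 on HFD (log2 fold change 0.88, SE 0.509, edgeR adjusted p = 0.292). NCD replicate 1 was far below the other mice, and without that mouse the log2 fold change was 0.48 (edgeR adjusted p = 0.0653). *Mmp23* and *Mmp28* did not separate by diet (log2 fold change 0.56 and -0.16, edgeR adjusted p = 0.165 and 0.770, and 0.50 and -0.34 without NCD replicate 1).

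**Figure D3:**
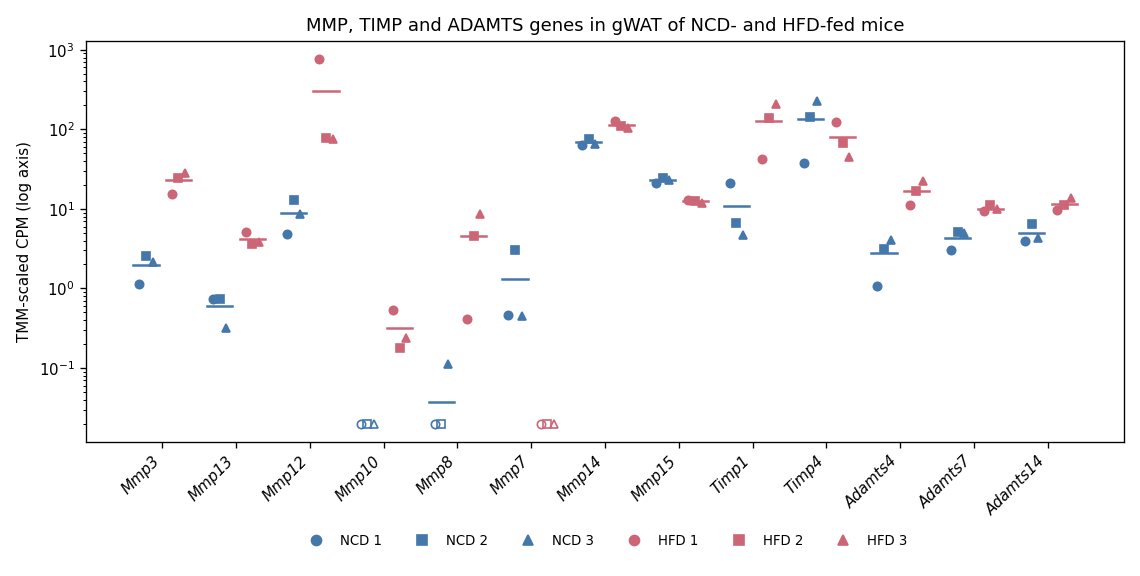
TMM-scaled CPM (log axis) of 13 members in each mouse, with NCD in blue, HFD in red, a symbol for each replicate number, lines for group means and open symbols at the bottom for 0 counts. *Mmp3*, *Mmp13*, *Mmp14* and *Adamts4* have all HFD-fed mice above all NCD-fed mice, *Mmp15* and *Mmp7* have them below, and *Timp4* overlaps.

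Of the inhibitors, *Timp1* passed edgeR's test without NCD replicate 1 and missed the threshold with all 6 mice, where it passed with DESeq2 (adjusted p = 3.74e-05) and with total counts only (edgeR adjusted p = 0.0342). *Timp1* (NCBI gene 21857), a secreted inhibitor of most MMPs that inflammatory signals induce, had 21.4, 6.55 and 4.72 TMM-scaled CPM on NCD and 42.1, 137 and 208 on HFD. The diets did not overlap, and the closest values were those of NCD replicate 1 and HFD replicate 1. Means were 10.9 ± 9.13 and 129 ± 83.2 (SD, n = 3 mice each), and the log2 fold change was 3.57 (SE 0.837, edgeR adjusted p = 0.0557) with 6 mice and 4.53 (SE 0.771, edgeR adjusted p = 0.0159) without NCD replicate 1.

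*Timp2*, which takes part in the activation of the MMP2 precursor by MMP14, was at 180.4, 303 and 242 TMM-scaled CPM on NCD and at 523, 369 and 232 on HFD (log2 fold change 0.63, SE 0.359, edgeR adjusted p = 0.287, and 0.47 without NCD replicate 1). *Timp3*, which binds to the matrix and also inhibits ADAM17 and several ADAMTS enzymes, was at 218, 386 and 477 on NCD and at 452, 435 and 248 on HFD. Its log2 fold change was 0.07 (SE 0.381, edgeR adjusted p = 0.916) and -0.18 without NCD replicate 1. In both genes the diets overlapped, with HFD replicate 3 the lowest of the HFD-fed mice.

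*Timp4*, an inhibitor expressed in adipose tissue and heart, was at 38.2, 143 and 229 TMM-scaled CPM on NCD and at 125, 68.3 and 45.2 on HFD. NCD replicate 1 lay below all HFD-fed mice, and the adipocyte list was lowest in the same library. The log2 fold change was -0.78 (SE 0.679, edgeR adjusted p = 0.470) with 6 mice and -1.21 (SE 0.443, edgeR adjusted p = 0.106) without NCD replicate 1, where both remaining NCD-fed mice were above every HFD-fed mouse. The same held for the adipocyte markers *Adipoq*, *Cidec*, *Plin1* and *Pparg*, and *Lep* and *Fabp4* overlapped. *Plin1* and *Pparg* were called lower in that fit (log2 fold change -1.17 and -1.11, edgeR adjusted p = 0.0234 and 0.0123). The part of adipocyte number in *Timp4* was not tested. *Timp4* passed only in 2 of the alternatives run, both without NCD replicate 1, with DESeq2 (adjusted p = 0.0305) and with HFD replicate 1 also left out (edgeR adjusted p = 0.0213).

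**Figure D4:**
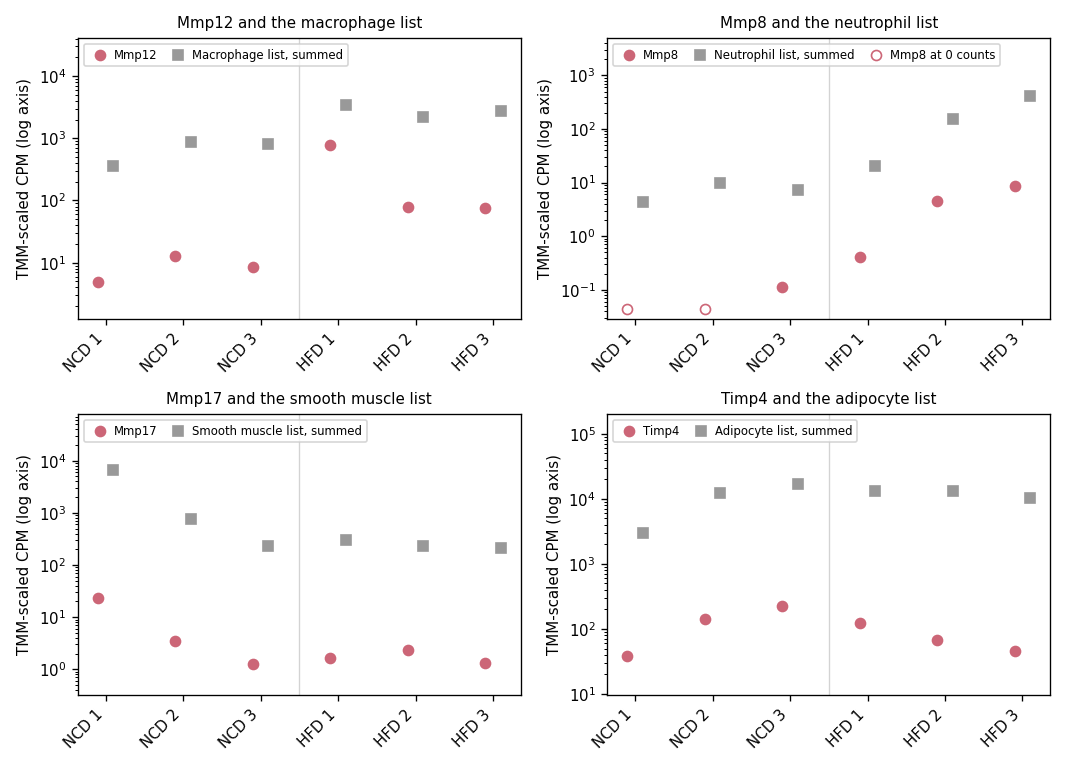
TMM-scaled CPM (log axis) in each mouse of *Mmp12*, *Mmp8*, *Mmp17* and *Timp4* (circles) beside the summed markers of macrophages, neutrophils, smooth muscle and adipocytes (squares); open circles are 0 counts. *Mmp12* in HFD replicate 1 (771) and *Mmp17* in NCD replicate 1 (23.2) stand apart from the other mice.

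To compare levels between genes, counts were divided by exon length and by the library total to give FPKM. FPKM was used to rank genes within a mouse or a diet and not to compare diets, since the seminal vesicle counts lower all other genes in NCD replicate 1. On NCD, *Timp3* and *Timp2* were the most abundant inhibitors, at 71.6 ± 44.0 and 59.1 ± 31.1 FPKM (SD, n = 3 mice), followed by *Timp4* at 23.2 ± 19.2 and *Timp1* at 8.39 ± 3.19. On HFD the order of the means was *Timp1* at 182 ± 121, *Timp2* at 122 ± 42.1, *Timp3* at 97.7 ± 27.2 and *Timp4* at 16.3 ± 7.58, and the first 3 did not differ beyond their spread. The share of *Timp1* in the summed TIMP FPKM was 19.2%, 3.79% and 2.53% on NCD and 15.5%, 43.2% and 65.6% on HFD. HFD replicates 2 and 3 were above every NCD-fed mouse, and HFD replicate 1 lay below NCD replicate 1.

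Among the MMPs, *Mmp19* had the highest FPKM in NCD replicates 2 and 3 and HFD replicates 2 and 3, *Mmp2* in NCD replicate 1 and *Mmp12* in HFD replicate 1. *Mmp12* made up between 1.79% and 2.84% of the summed MMP FPKM on NCD and 53.5%, 11.6% and 12.6% on HFD. *Mmp3* made up between 0.912% and 1.27% on NCD and 2.39%, 8.07% and 10.5% on HFD. Both shares were higher in every HFD-fed mouse. The ratio of summed TIMP to summed MMP FPKM was 1.83, 1.69 and 2.21 on NCD and 0.844, 2.12 and 2.36 on HFD. It overlapped between the diets, and the low value of HFD replicate 1 was 1.82 when *Mmp12* was left out of the sum. Its log2 value was 0.92 ± 0.198 on NCD and 0.69 ± 0.816 on HFD (mean ± SD, n = 3 mice each).

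**Figure D5:**
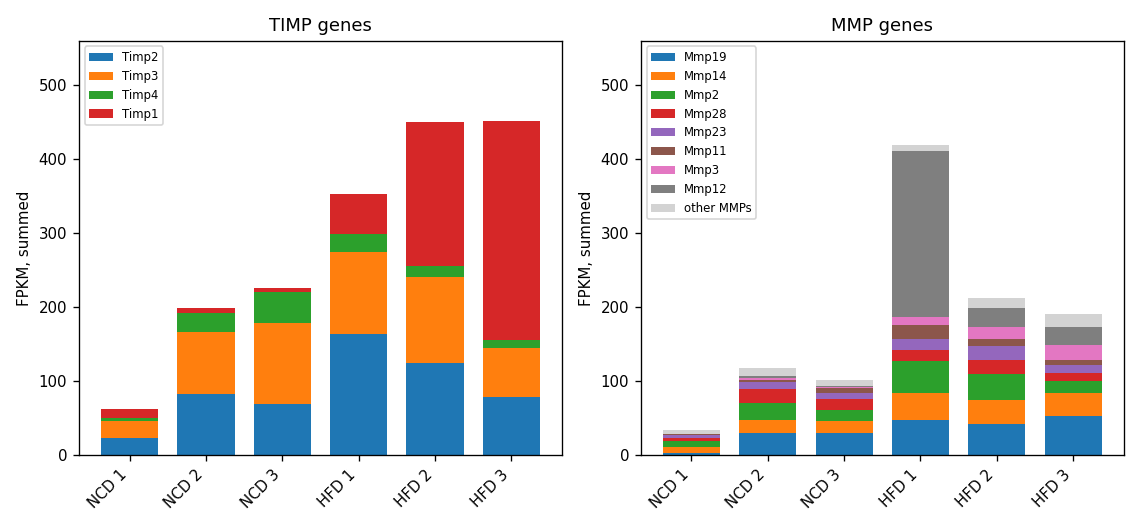
Summed FPKM of the TIMP genes (left) and the MMP genes (right) in each mouse, stacked by gene. *Timp1* made up 43.2% and 65.6% of the TIMP bars of HFD replicates 2 and 3, and *Mmp12* 53.5% of the MMP bar of HFD replicate 1.

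Of the ADAMTS genes that cut proteoglycans, *Adamts4* (aggrecanase-1, NCBI gene 240913) rose. Its values were 1.07, 3.18 and 4.07 TMM-scaled CPM on NCD and 11.2, 16.7 and 22.7 on HFD. The diets did not overlap, and the mean rose from 2.77 ± 1.54 (SD, n = 3 mice) to 16.9 ± 5.75 (SD, n = 3 mice), a log2 fold change of 2.60 (SE 0.548, edgeR adjusted p = 0.0454) and of 2.24 without NCD replicate 1 (edgeR adjusted p = 0.0138).

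The other proteoglycan-cleaving genes did not pass in either fit. *Adamts5* (aggrecanase-2) was the most abundant ADAMTS gene per length in every mouse, with between 22.3% and 36.8% of the summed ADAMTS FPKM. It was at 74.4, 286 and 411 TMM-scaled CPM on NCD and at 331, 324 and 275 on HFD, a log2 fold change of 0.27 with 6 mice and -0.16 without NCD replicate 1. *Adamts1*, whose gene lies 55.0 kb from *Adamts5* on chromosome 16, was at 23.8, 57.5 and 117 on NCD and at 40.2, 87.2 and 90.4 on HFD (log2 fold change 0.13 and -0.25 in the same fits). *Adamts9* and *Adamts15* had log2 fold changes of 0.36 and 0.51 with 6 mice and of 0.020 and 0.25 without NCD replicate 1, and *Adamts20* was at most 0.913 TMM-scaled CPM in any mouse. *Adamts8* and *Adamts15* lie 20.1 kb apart on chromosome 9, and only *Adamts8* was highest in NCD replicate 1.

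*Adamts2*, *Adamts3* and *Adamts14* remove the amino-terminal propeptide of procollagens, a step before collagen fibrils assemble. *Adamts2*, the most abundant of them per length, was at 31.9, 115 and 83.1 TMM-scaled CPM on NCD and at 166, 158 and 119.9 on HFD, without overlap but short of the threshold (log2 fold change 0.95, SE 0.455, edgeR adjusted p = 0.219, and 0.60 with adjusted p = 0.0967 without NCD replicate 1). *Adamts14* was at 3.99, 6.54 and 4.30 on NCD and at 9.74, 11.3 and 13.5 on HFD. Its log2 fold change was 1.22 (SE 0.277, edgeR adjusted p = 0.0520) with 6 mice and 1.11 without NCD replicate 1, where it rose past the threshold (edgeR adjusted p = 0.0372). *Adamts3* was at 2.01, 0.986 and 0.818 on NCD and at 1.27, 3.16 and 2.81 on HFD, and NCD replicate 1 lay above HFD replicate 1 (log2 fold change 0.93, edgeR adjusted p = 0.283). Without that mouse the diets did not overlap (log2 fold change 1.43, edgeR adjusted p = 0.0934).

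*Adamts7* (NCBI gene 108153), which cuts cartilage oligomeric matrix protein, was at 3.04, 5.07 and 4.97 TMM-scaled CPM on NCD and at 9.31, 11.1 and 9.86 on HFD. The diets stood clearly apart, and the log2 fold change was 1.21 (SE 0.268, edgeR adjusted p = 0.0502), just short of the threshold. Without NCD replicate 1 it rose by 1.02 on the log2 scale (edgeR adjusted p = 0.0155). *Adamts6* was also without overlap, at 3.46 to 4.60 on NCD and 4.96 to 7.37 on HFD (log2 fold change 0.64, edgeR adjusted p = 0.164, and 0.79 with adjusted p = 0.0754 without NCD replicate 1). *Adamts10*, which binds fibrillin, and *Adamts12* overlapped (log2 fold change 0.41 and 0.15, edgeR adjusted p = 0.456 and 0.874, and 0.14 and -0.25 without NCD replicate 1). *Adamts16*, *Adamts18* and *Adamts19* stayed at or below 1.01 TMM-scaled CPM in every mouse and did not pass.

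Genes that act on or beside these proteases were counted from lists of the plasmin system, convertases, other inhibitors, ADAMTS-like proteins, ADAM proteases and ADAMTS substrates. These lists give no enrichment, only counts to be read beside the 5.58% and 1.9% of all genes called higher and lower. In the plasmin system, which activates several pro-MMPs, *Plaur*, the receptor of urokinase, rose from 7.43 ± 0.842 to 39.6 ± 9.72 TMM-scaled CPM (SD, n = 3 mice each; log2 fold change 2.41, edgeR adjusted p = 0.0192, and 2.45 without NCD replicate 1).

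Of 4 other inhibitors, inducers and clearance receptors tested, *Tfpi2*, a serine protease inhibitor, rose from 1.49 ± 0.508 to 13.9 ± 3.80 TMM-scaled CPM (log2 fold change 3.22, edgeR adjusted p = 0.0212, and 3.01 without NCD replicate 1). *Reck*, a membrane-anchored MMP inhibitor, had a log2 fold change of -0.08 (edgeR adjusted p = 0.883). Of 8 ADAM genes tested, 2 rose, *Adam8* of myeloid cells from 10.6 ± 3.86 to 239 ± 147 and *Adam17*, the TNF-alpha converting enzyme, from 45.6 ± 6.38 to 90.0 ± 6.17 (log2 fold changes 4.50 and 0.98, edgeR adjusted p = 0.0219 and 0.0260, and 4.25 and 0.89 without NCD replicate 1). *Adam8* was highest in HFD replicate 1, the mouse with the highest *Mmp12*. Of 8 substrates and cofactors tested, the microfibril gene *Fbn1* rose from 54.0 ± 17.6 to 241 ± 65.3 (log2 fold change 2.16, edgeR adjusted p = 0.0240, and 2.01 without NCD replicate 1). *Vcan*, which encodes versican, a substrate of *Adamts4*, was at 37.3, 23.7 and 14.6 on NCD and 28.8, 78.5 and 101 on HFD and did not pass (log2 fold change 1.46, edgeR adjusted p = 0.138, and 1.88 with adjusted p = 0.0686 without NCD replicate 1, where the diets did not overlap). The 6 ADAMTS-like genes and the 3 convertases tested did not pass, with median log2 fold changes of 0.62 and 0.35. No gene of these lists was called lower with 6 mice, and *Serpine2* of the plasmin system was called lower without NCD replicate 1 (log2 fold change -1.52, edgeR adjusted p = 0.0378). Its values were 1794, 216 and 88.6 TMM-scaled CPM on NCD and 48.5, 60.5 and 48.4 on HFD. The NCD-fed mice had the same order as in their share of seminal vesicle transcripts, whose part in *Serpine2* was not tested. Without NCD replicate 1, 4 of 8 ADAM genes rose, *Adam9* and *Adam10* among them (log2 fold change 1.27 and 0.87, edgeR adjusted p = 0.00611 and 0.00929), as did *Lrp1*, a clearance receptor of proteases (1.11, edgeR adjusted p = 0.0238), beside 10.7% of all genes called higher.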

How the data were processed

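RNA was extracted from gWAT of 3 NCD-fed and 3 HFD-fed mice and sequenced as 1 stranded library per mouse, and no source used here gives the strand setting of the counting. The authors deposited raw read counts per NCBI gene ID. The submitters' processing notes name bcl2fastq 2.20.0, Trimmomatic, HISAT2 2.1.0, StringTie 1.3.4d, DESeq2 and the build mm10/GRCm38, without roles. The column of the third HFD replicate is numbered 4 in the table. Gene names came from the NCBI annotation of GRCm38.p6 (19742 of 19790 IDs).

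Low counts were removed by filterByExpr. A gene was kept with a CPM of about 10 counts in as many libraries as the smaller group has, and 15 counts in total. TMM scaling and the quasi-likelihood test of edgeR 4.0.16 were applied (glmQLFit and glmQLFTest, R 4.3.3), with Benjamini-Hochberg adjustment over all genes tested and no covariates. TMM factors were 0.496 in NCD replicate 1 and from 1.02 to 1.27 in the other libraries. FPKM was computed here from union exon lengths. Libraries of a diet differed by more than sampling noise, so none was merged. The edgeR test was checked on simulated counts. The simulated libraries shared a common mean profile apart from randomly chosen changes, so the check does not cover the unequal seminal vesicle RNA. By rule, values in every mouse were given for the 4 Timp genes, Mmp2, Mmp9, Mmp14 and the members that passed, and group means or fold changes for genes of the other lists that passed with 6 mice. Genes of those lists with the next smallest p, such as Comp, were not all given. Per-mouse values of further members, of Vcan, Serpine2 and single cell type markers, and Reck, Adam9, Adam10 and Lrp1, were added after their values were seen. The members and lists were chosen with earlier results of these data known. The labels call the mice biological replicates. Alternatives were another scaling, no filter, DESeq2 1.42.0, a replicate block, removal of the seminal vesicle genes and leaving out mice. A gene of the plasmin system list is not reported here.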

Additional observations from a re-analysis of the deposited data

How the results depend on the processing

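The directions of Mmp3, Mmp13, Mmp14, Mmp15, Mmp12, Mmp10, Mmp7, Timp1, Adamts4, Adamts7 and Adamts14 were unchanged in all 19 alternatives. The 4 members called higher became 2 with no filter on low counts, 2 with upper-quartile scaling, 6 with total counts only and 10 with DESeq2, where 3.38%, 4.96%, 4.91% and 14.1% of all genes were higher. Between 0 and 15 were higher when mice were left out, beside 0.00634% to 18.1% of all genes. The 1 member called lower became 2 with DESeq2, where 11.5% of all genes were lower. When mice were left out, between 0 and 3 members were lower, beside 0.00634% to 16.7% of all genes. In the fits with 3 members lower, 11.4% or 16.7% of all genes were lower. Over all genes the 1139 calls became 3904 with DESeq2, which gave 37 genes no adjusted p, and between 2 and 5393 when mice were left out. They were 3234 without NCD replicate 1 and, without any other single mouse, between 2 and 7. Calls higher on HFD made up 74.6% of all calls with 6 mice, 55.1% with DESeq2 and 51.5% without NCD replicate 1. Combinations of leaving out NCD replicate 1 with another scaling, DESeq2 or an HFD-fed mouse were chosen after seeing the data. In fits without NCD replicate 1, 8 members were higher with median-of-ratios scaling, 12 with total counts only and 15 with DESeq2, where 10.5%, 16.4% and 18.1% of all genes were higher, and 3226, 3499 and 5393 genes passed. Without NCD replicate 1 and HFD replicate 1, 14 members and 13.7% of all genes were higher and 3865 genes passed.

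With a replicate block, edgeR called 12 genes and 0 members in either direction, and 11 members were higher and 2 lower at an unadjusted p under 0.05, against 14.3% and 9.12% of all genes. Deviations of samples with the same number correlated between -0.0501 and -0.0192, within the range of -0.0617 to 0.0656 for samples with unlike numbers. No pairing of the mice by number was seen, and with 3 mice per diet these values cannot exclude one.

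With total counts only, Mmp28 turned to 0.27, and the median of all genes moved from -0.08 to 0.44. The HFD-minus-NCD difference of the log2 TIMP to MMP ratio was -0.23, 0.13 without Timp3 and Mmp19, and 0.23 without Mmp12, an alternative added after seeing the data. It lay between -0.50 and 0.24 when a mouse was left out. Of the members that did not pass, 11 changed sign when mice were left out, with log2 fold changes from -0.45 to 0.85 in Adamts1, -0.0049 to 0.76 in Adamts10, -0.48 to 0.45 in Adamts12, -0.15 to 2.61 in Adamts16, -3.22 to 1.00 in Adamts17, -0.000084 to 0.68 in Adamts18, -0.22 to 0.79 in Adamts5, -2.70 to 0.062 in Adamts8, -0.19 to 0.58 in Adamts9, -0.53 to 0.090 in Mmp28 and -0.34 to 0.34 in Timp3. In the fits without NCD replicate 1, log2 fold changes with median-of-ratios scaling, total counts only and DESeq2 were -0.27, -0.032 and -0.27 in Adamts1, -0.26, -0.045 and -0.26 in Adamts12, and 0.53, 0.72 and 0.54 in Adamts17. In Adamts5 they were -0.17 with median-of-ratios scaling and with DESeq2. In Timp3 both were -0.19. The cause of these changes was not tested.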
